A study of Mus musculus with 18 samples.

Results

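Complement is a set of plasma and membrane proteins that label cells and particles for removal and can open a pore in their membranes. The transcripts described here are 9 genes of that system, C2, C3, C4B, CFB, CFD, CFI, CFP, CD55 and CD59A, chosen by name as the entries with these upper-case symbols, and all 9 were found among the 23626 entries used of a mouse thyroid RNA-seq table. C3 is the central component; factor B (CFB), factor D (CFD) and properdin (CFP) form and stabilise the alternative pathway convertase that cleaves it, and C2 and C4 form the convertase of the classical and lectin pathways. Factor I (CFI) is a plasma protease that inactivates the cleaved C3 and C4 fragments. CD55, decay-accelerating factor, takes convertases apart on the cell surface, and CD59A keeps the terminal pore from assembling there. The liver makes most plasma complement, while many epithelia make C3 and factor B and leukocytes make properdin.

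The 18 libraries were made from YFP-sorted thyrocytes of mice labelled as naive and at 20 weeks, and cover 3 tumour groups and 3 pools. K5-Tert tumours (genotype BrafV600E+K5-Tert, n = 4) carried the Braf mutation and a K5-Tert transgene; K5 is the usual short name of keratin 5, a keratin of basal epithelial cells whose promoter is often used to drive transgenes. Tert-123 tumours (BrafV600E+Tert-123C>T, n = 7) carried the Braf mutation and a Tert promoter change, and Braf tumours (BrafV600E, n = 4) carried the Braf mutation alone. The K5-Tert pool, the Tert-123 pool and the wild-type pool lacked the Braf mutation, and each was a single library of pooled samples, so no spread can be given for a pool. The labels do not say that libraries of a group came from separate animals, so p-values measure the spread between these libraries. The label numbers of the 4 K5-Tert tumours lie above every other tumour's number, and a difference in cohort or run, if there was one, cannot be told apart from the transgene.

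Levels are given as TPM, an abundance corrected for transcript length. The unit was inferred from the column sums and from low values that share no common step, and is not stated in the sources used here, so comparisons of level between genes hold only if that correction was made; the depth is unknown because no counts were used. RPPH1, the RNA component of RNase P, took 43.7% to 68.8% of a library's TPM, and 10958 to 15045 entries reached 1 TPM. The 2 libraries in which RPPH1 took the most were K5-Tert tumours 2 and 4 (68.8% and 67.7%), and K5-Tert tumour 4 had the fewest entries at 1 TPM. Thyrocyte markers summed to 1535 to 3520 TPM in the tumours and 28020 to 35450 TPM in the pools, led by thyroglobulin. The sort also held RNA of other cells. Macrophage markers (14 genes) summed to 216 to 5349 TPM in the tumours, against 82.8, 277 and 54.3 TPM in the K5-Tert, Tert-123 and wild-type pools, and were highest in Tert-123 tumour 4 (5349 TPM), K5-Tert tumour 3 (3936 TPM) and Tert-123 tumour 6 (2404 TPM). LYZ2 led the tumour sums (128 to 4275 TPM, against 13.6 to 40.3 TPM in the pools). MRC1 and TYROBP also exceeded all pools in 15 of 15 tumours, but PTPRC, ADGRE1, FCGR1 and AIF1 in 2, 1, 1 and 0. Fibroblast markers (8 genes) summed to 91.05 to 2477 TPM in the tumours, against 34.3, 350 and 39.5 TPM in the same pools. T cell markers (7 genes) summed to 3.70 to 35.6 TPM in the tumours, against 1.22, 181 and 9.93 TPM in those pools. Adipocyte markers (8 genes) summed to 2.72 to 31.4 TPM in the tumours, against 8.14, 169 and 52.9 TPM. The Tert-123 pool thus had the highest sum of the 3 pools on each of these lists. In bulk libraries, fewer cells of a type and less RNA per cell cannot be told apart.

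The sequences before the start sites of the members tested below are shown for the 4 with an entry in the RefSeq promoter set used (GRCm38.p6). Cfb had no entry in that set. The sequences are given because these genes moved in both directions between tumours and pools. Each run is the 250 bases before the annotated start, 5′ to 3′ on the gene's strand, with motif matches in capitals. The motifs searched on both strands were NF-kB-like GGANTTTCC, ISRE-like GAAANNGAA, GAS-like TTCNNNGAA, AP-1 TGANTCA and C/EBP-like TTGCNNAA.
C3 (chr17:57228137-57228386, minus strand): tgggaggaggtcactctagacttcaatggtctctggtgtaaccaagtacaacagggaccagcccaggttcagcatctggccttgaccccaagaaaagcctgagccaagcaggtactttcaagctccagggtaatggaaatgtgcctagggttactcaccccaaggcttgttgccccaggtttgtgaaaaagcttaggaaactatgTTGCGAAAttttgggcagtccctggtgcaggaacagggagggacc
Cfp (chrX:20931556-20931805, minus strand): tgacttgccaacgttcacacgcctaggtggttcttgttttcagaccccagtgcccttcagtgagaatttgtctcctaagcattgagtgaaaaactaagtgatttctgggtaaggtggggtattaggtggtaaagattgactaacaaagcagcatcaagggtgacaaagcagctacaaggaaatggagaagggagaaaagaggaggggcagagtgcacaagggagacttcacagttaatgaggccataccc
Cd55 (chr1:130462745-130462994, minus strand): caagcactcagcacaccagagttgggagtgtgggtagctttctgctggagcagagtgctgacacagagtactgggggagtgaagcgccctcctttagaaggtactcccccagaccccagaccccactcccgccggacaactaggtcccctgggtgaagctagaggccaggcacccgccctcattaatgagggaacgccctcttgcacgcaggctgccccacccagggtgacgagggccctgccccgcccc
Cd59a (chr2:104095551-104095800, plus strand): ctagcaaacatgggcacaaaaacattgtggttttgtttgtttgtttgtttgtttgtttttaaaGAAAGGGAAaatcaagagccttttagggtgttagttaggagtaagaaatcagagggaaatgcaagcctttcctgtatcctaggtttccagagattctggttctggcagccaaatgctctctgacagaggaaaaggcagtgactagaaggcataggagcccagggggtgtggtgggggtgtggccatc
The C3 window held 1 match, the C/EBP-like TTGCGAAA at 45 to 38 bases before the start, a motif that 9.56% of 32851 RefSeq windows of the same length hold. The Cd59a window held 1 match, the ISRE-like GAAAGGGAA at 187 to 179 bases before the start, a motif that 7.13% of all windows hold. The Cfp and Cd55 windows held none of the 5 motifs, whose shares over all windows were 1.07% for NF-kB-like, 7.02% for GAS-like and 6.75% for AP-1. Of the 9 members, 5 had an entry in the promoter table (C3, Cfd, Cfp, Cd55 and Cd59a). C2 and Cfb are direct neighbours on chromosome 17, with 0 annotated genes between them.

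C3 was the most abundant member in the tumours, ranking 334 of 23626 entries by mean tumour level. The mean tumour levels of the others, over 15 tumours, were 27.0 TPM for CFP, 22.9 TPM for CD55, 12.3 TPM for CFB, 10.3 TPM for both CD59A and C4B, 2.17 TPM for C2, 1.02 TPM for CFD and 0.676 TPM for CFI, against 161 TPM for C3. From CFP down to C4B the ranges of neighbouring genes overlap widely, so their order is not fixed by these libraries. In the pools CD59A came first, at a mean of 63.2 TPM over 3 libraries, and C3 second, at 32.1 TPM; the other 7 members averaged between 0.0894 TPM for CFI and 3.39 TPM for CFP.

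**Figure D1:**
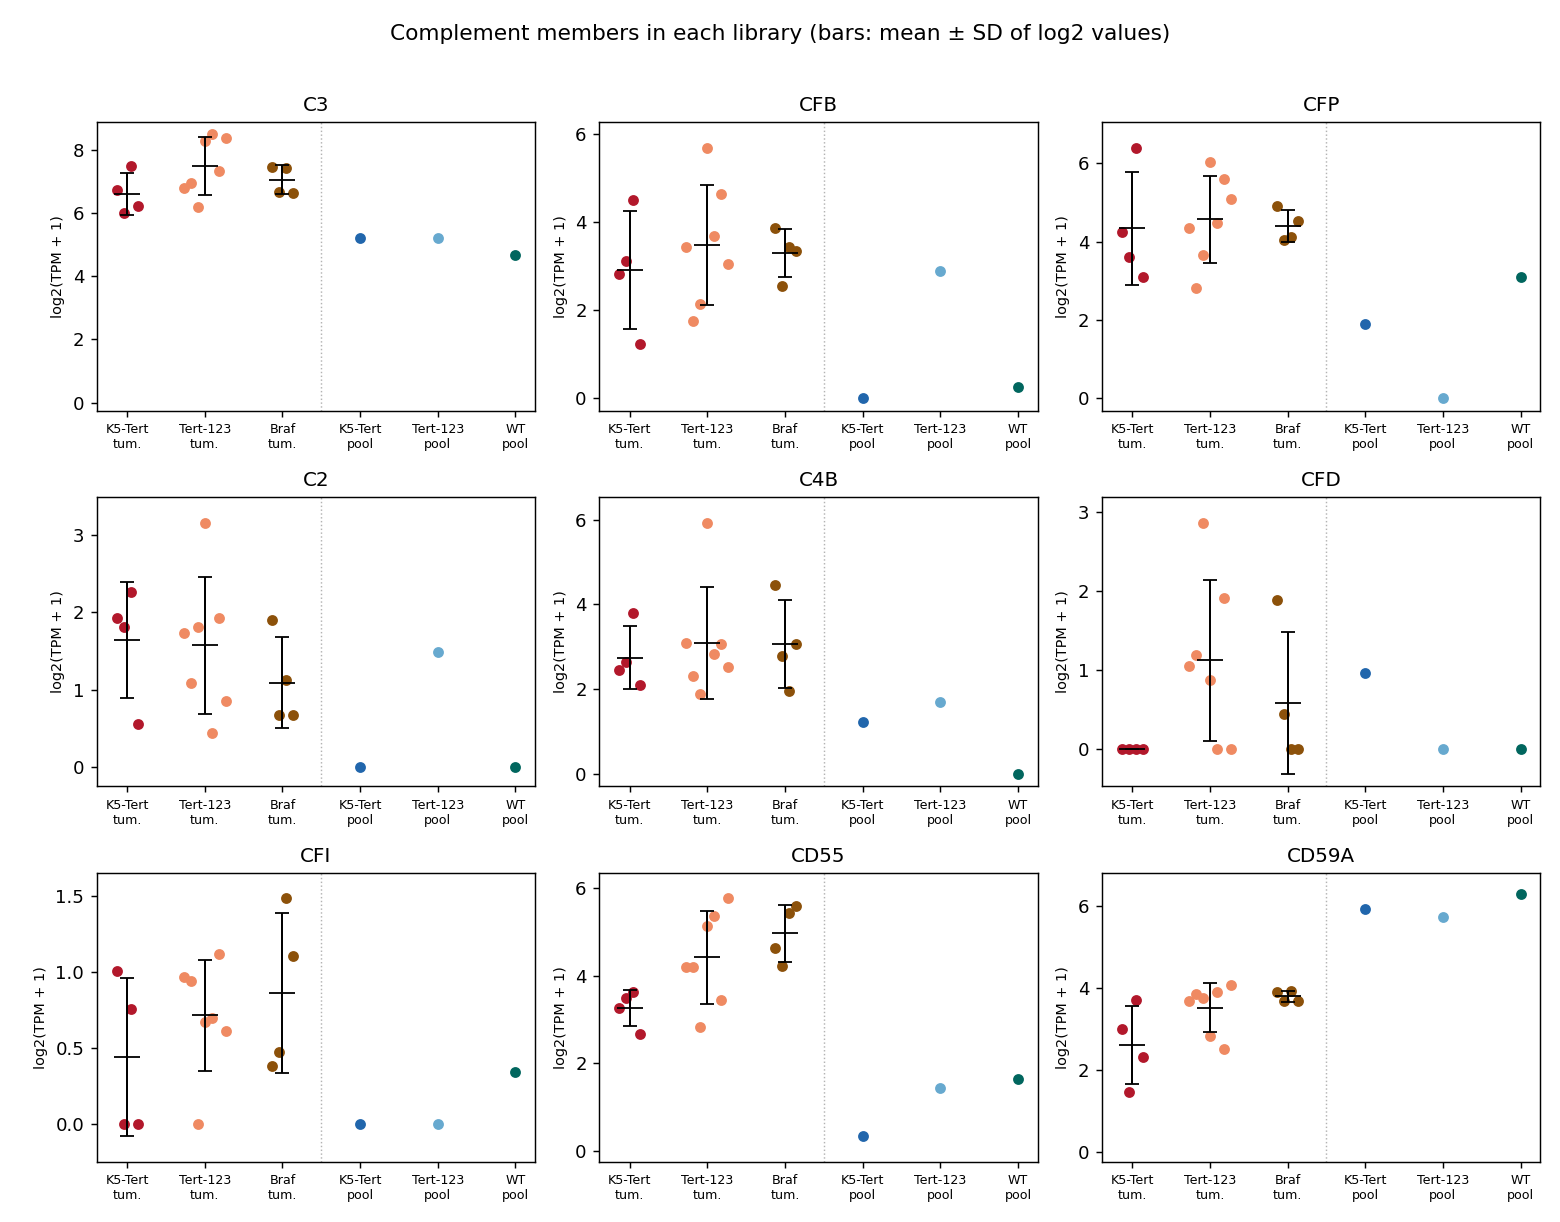
Level of each of the 9 members in every library, as log2(TPM + 1), with 1 panel a gene and its own vertical scale. Points are libraries, and bars are the mean ± SD of the log2 values of a tumour group (K5-Tert n = 4, Tert-123 n = 7, Braf n = 4); each pool is 1 library. All 15 tumours lie above the 3 pools for C3, C4B and CD55 and below them for CD59A. The share of all genes that separate in this way was not counted.

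Tumours were first set against the pools without the Braf mutation. In the tumours C3, CFB, CFP and CD55 were higher and CD59A was lower, so the 2 membrane regulators moved in opposite directions. The Braf term was fitted with limma on log2(TPM + 1) over all 18 libraries beside the Tert allele, two-sided, with Benjamini-Hochberg adjustment over 7825 genes. This fit had 14 residual degrees of freedom, where the fit over the tumours alone had 12. Its p-values therefore rest mostly on the spread between tumours. Every library without the Braf mutation was a pool and no tumour library was labelled as pooled. The Braf term therefore cannot be told apart from pooling. Of the 9 members, 5 passed the filter (at least 10 TPM in 4 or more libraries); 4 of these were called higher and 1 lower, where 15.4% of all genes tested were called higher and 10% lower. Because a member can pass that filter through the tumours in which it is high, these counts describe the tested members alone; CFB, CFP and CD55 reached 10 TPM in no pool. With no filter, all 9 members were fitted, and 5 were called higher and 1 lower, where 7.88% of 22693 genes were called higher and 6.27% lower. The median log2 difference of the 9 was then 1.98, beside 0.15 over all genes. How many of all genes lay wholly apart between tumours and pools was not counted, so such separation is described below for each member only.

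C3 stood at 104.5, 63.2, 176.6 and 73.0 TPM in K5-Tert tumours 1 to 4, and at 175.1, 99.9, 170.0 and 98.2 TPM in Braf tumours 1 to 4. In the 7 Tert-123 tumours its lowest, median and highest levels were 71.1, 159.8 and 357.4 TPM, and the K5-Tert, Tert-123 and wild-type pools had 36.3, 35.8 and 24.3 TPM. All 15 tumours lay above all 3 pools, and 3 Tert-123 tumours lay above every other tumour, tumour 4 at 307.2 TPM, tumour 5 at 357.4 TPM and tumour 7 at 330.9 TPM. The limma log2 difference, tumours minus pools, was 2.02 ± 0.40 (SE), with an adjusted p of 0.0005859. Within each allele the mean of the log2 values exceeded that of its own pool by 1.38 with K5-Tert, 2.28 with Tert-123 and 2.38 without a Tert change; a difference between alleles was not tested.

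CFB, the protease-bearing subunit of the alternative pathway convertase, was at 6.08, 7.71, 21.8 and 1.36 TPM in the K5-Tert tumours and 13.7, 4.90, 9.89 and 9.18 TPM in the Braf tumours. The Tert-123 tumours had a lowest, median and highest level of 2.35, 9.88 and 50.7 TPM, and the K5-Tert, Tert-123 and wild-type pools were listed at 0, 6.45 and 0.195 TPM. Only 10 of 15 tumours exceeded all pools, since the Tert-123 pool lay inside the tumour range. The log2 difference was 2.14 ± 0.67 (SE; limma, adjusted p = 0.02084). The call was lost without the K5-Tert pool (1.76, adjusted p = 0.1044), without the wild-type pool (1.70, adjusted p = 0.1582) and with a pseudocount of 5 (1.07, adjusted p = 0.07773), and the adjusted p ran from 0.008326 to 0.1582 over 27 alternatives. Within each allele the mean of the log2 values exceeded that of its own pool by 2.92 with K5-Tert, 0.59 with Tert-123 and 3.05 without a Tert change, and 2 of 7 Tert-123 tumours lay below the Tert-123 pool.

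CFP, the plasma protein that stabilises the same convertase, had 18.02, 11.1, 83.1 and 7.57 TPM in the K5-Tert tumours and 29.1, 15.4, 16.3 and 21.9 TPM in the Braf tumours. Its lowest, median and highest levels in the Tert-123 tumours were 5.97, 21.3 and 64.2 TPM, and the K5-Tert, Tert-123 and wild-type pools were listed at 2.72, 0 and 7.46 TPM. All tumours but Tert-123 tumour 2 lay above every pool, and K5-Tert tumour 3 stood far above the rest of its group. The log2 difference was 2.83 ± 0.61 (SE; limma, adjusted p = 0.001392), and it was 1.88 with an adjusted p of 0.05585 without the Tert-123 pool, the highest p of 27 alternatives that began at 0.0004174. By allele it was 2.44 with K5-Tert, 4.57 with Tert-123 and 1.31 without a Tert change. For CFB and CFP, each with a pool listed at 0, the fitted size depends on the pseudocount of 1; with a pseudocount of 5 the CFP difference was 1.77 (adjusted p = 0.007624).

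CD55 was higher in every tumour group than in the pools. It was at 8.61, 10.2, 11.3 and 5.36 TPM in the K5-Tert tumours and 23.6, 17.7, 42.0 and 46.9 TPM in the Braf tumours. The Tert-123 tumours had 6.09, 17.2 and 53.7 TPM as their lowest, median and highest levels, and the K5-Tert, Tert-123 and wild-type pools had 0.273, 1.70 and 2.14 TPM. Every tumour exceeded every pool, and the lowest tumour (5.36 TPM) was above the highest pool. The log2 difference was 3.07 ± 0.44 (SE; limma, adjusted p = 1.551e-05). With a pseudocount of 5 it was 1.89 (adjusted p = 0.0004569; 2.14e-06 to 0.0005552 over 27 alternatives). By allele it was 2.91 with K5-Tert, 2.98 with Tert-123 and 3.31 without a Tert change. The second mouse copy, CD55B, stayed at or under 1.28 TPM in every library, and how reads shared by both copies were assigned is not given in the sources used here.

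CD59A, the membrane inhibitor of the terminal pore, ran the other way. It was at 6.92, 1.75, 11.9 and 3.94 TPM in the K5-Tert tumours and 14.0, 11.8, 14.2 and 11.8 TPM in the Braf tumours. The Tert-123 tumours had 4.72, 12.6 and 15.8 TPM as their lowest, median and highest levels, against 59.6, 52.0 and 78.0 TPM in the K5-Tert, Tert-123 and wild-type pools. The highest tumour lay far below the lowest pool. The log2 difference was -2.66 ± 0.36 (SE; limma, adjusted p = 8.458e-06), and by allele it was -3.31 with K5-Tert, -2.21 with Tert-123 and -2.51 without a Tert change. CD59B, the second mouse copy, was listed at 0 to 1.59 TPM in the tumours and at 14.2, 4.65 and 3.72 TPM in the K5-Tert, Tert-123 and wild-type pools, and reads shared with CD59A could have been split between them.

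**Figure D2:**
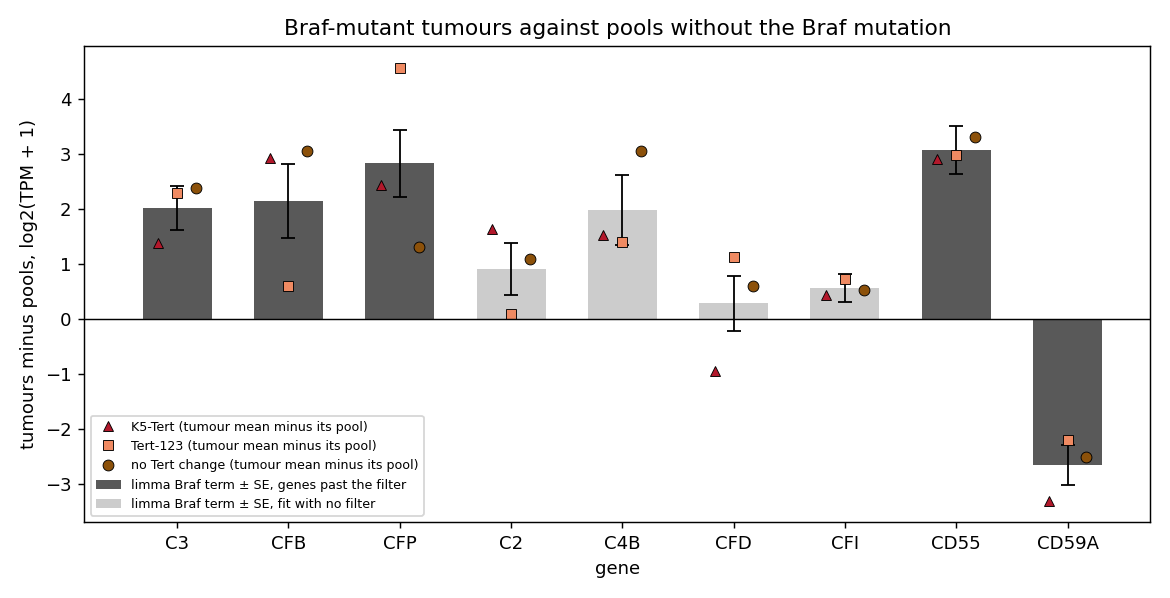
Difference between tumours and pools for each member on the log2(TPM + 1) scale. Bars with error bars are the limma Braf term ± SE over 18 libraries, dark for the 5 members past the filter and light for the 4 fitted with no filter; symbols give the mean of an allele's tumours minus its own pool. CD55 is the highest bar (3.07) and CD59A the lowest (-2.66).

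The 4 members under the filter were scarcer. C4B, the mouse gene for component C4, had 4.45, 5.20, 12.9 and 3.24 TPM in the K5-Tert tumours and 21.1, 5.87, 2.87 and 7.32 TPM in the Braf tumours. The Tert-123 tumours had 2.69, 6.07 and 59.2 TPM as their lowest, median and highest levels, and the K5-Tert, Tert-123 and wild-type pools were listed at 1.33, 2.21 and 0 TPM. All 15 tumours were above all pools, though 3 of them alone reached 10 TPM, and with no filter the log2 difference was 1.98 ± 0.63 (SE; limma, adjusted p = 0.04149). Its near-identical copy C4A did not exceed 1.42 TPM, so C4B values are uncertain where reads fit both. C2, which pairs with C4, ranged from 0.354 to 7.92 TPM in the tumours, and the pools were listed at 0, 1.79 and 0 TPM; with no filter its log2 difference was 0.91 ± 0.47 (SE; limma, adjusted p = 0.2206). CFD, the protease that activates factor B, was listed at 0 in all 4 K5-Tert tumours and in 8 of 15 tumours in all, and reached 6.26 TPM in 1 Tert-123 tumour; the K5-Tert pool had 0.952 TPM and the other pools were listed at 0. CFI, the soluble inhibitor, did not exceed 1.81 TPM in any library. With no filter, limma called neither CFD (log2 difference 0.28, adjusted p = 0.7221) nor CFI (0.56, adjusted p = 0.1723).

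Of 10 macrophage markers tested, limma called 5 higher in the tumours than in the pools, and of 7 fibroblast markers tested, 3, where 15.4% of all genes tested were called higher. With no filter, 4 of 14 macrophage and 3 of 8 fibroblast markers were called higher, where 7.88% of all genes were. Without the 3 tumours of the highest macrophage sum, a choice made after seeing the data, the log2 differences were 1.89 for C3, 1.75 for CFB, 2.42 for CFP, 3.05 for CD55 and -2.65 for CD59A, and 4 of the 5 members past the filter were called higher and 1 lower, where 14% of all genes tested were called higher and 9.74% lower. Tert-123 tumour 2 had the lowest macrophage sum of all tumours (216 TPM, below the 277 TPM of the Tert-123 pool). There C3 was 120.9 TPM and CD55 17.2 TPM, above all pools, while CFP (5.97 TPM) and CFB (2.35 TPM) were within the range of the pools. In Tert-123 tumour 3, with the next lowest sum (297 TPM), CFP (11.7 TPM) was above all pools and CFB (3.42 TPM) within their range. The Tert-123 pool, with the highest macrophage sum of the pools, had CFP at 0 and CFB at 6.45 TPM. The wild-type pool, with the lowest (54.3 TPM), had 7.46 and 0.195 TPM. Over the 15 tumours, the 3 tested genes whose scaled log2 levels were most like CFP (Pearson r, of 7497 genes) were NAAA (0.971), COTL1 (0.966) and ITGAX (0.965). For CFB they were FES (0.945), CLEC2D (0.912) and MPEG1 (0.911). C3 was closest to SHTN1 (0.848), NABP1 (0.843) and SRM (0.806), CD55 to DDX18 (0.885), LRRK2 (0.866) and STARD5 (0.858), and CD59A to ACACA (0.944), ZFP809 (0.857) and AFF1 (0.827). These are descriptions over tumours that share library effects. The part of other cells in the levels of CFB and CFP was not tested.

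**Figure D3:**
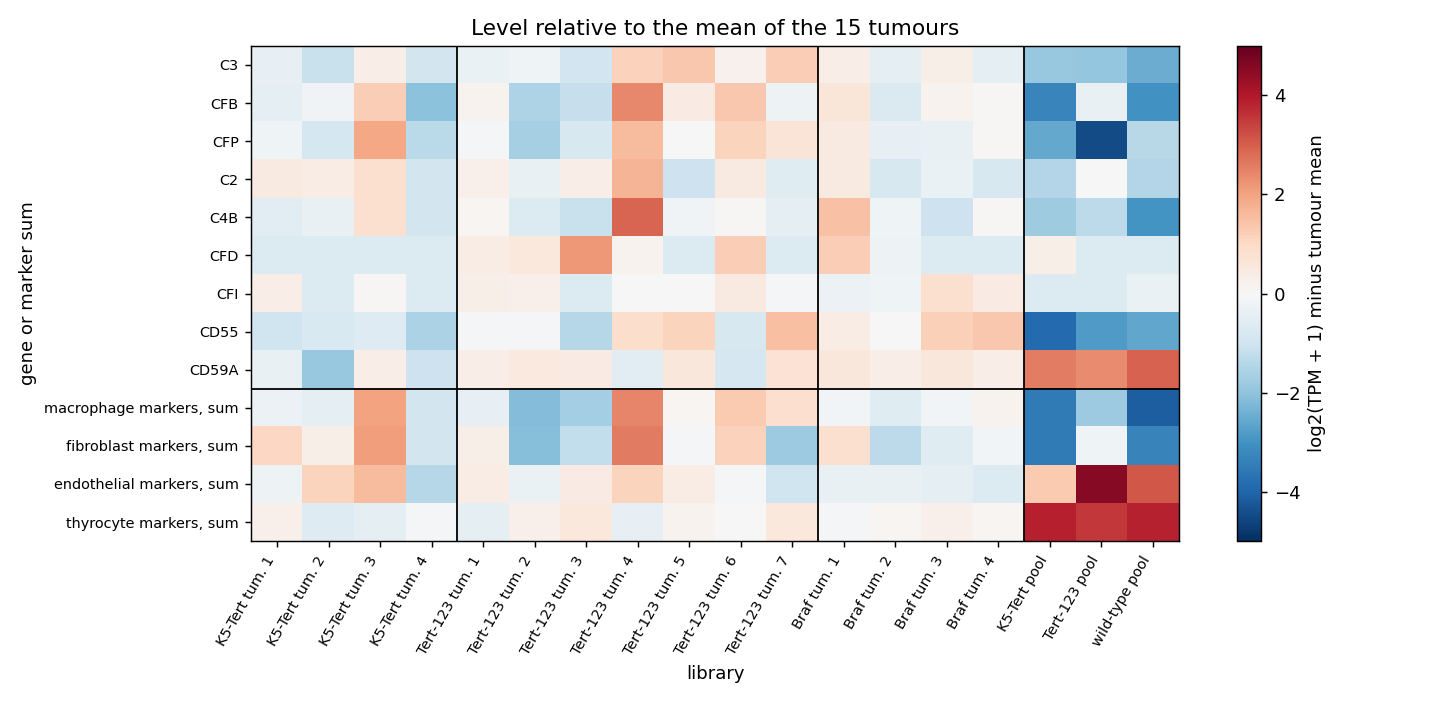
Members and summed cell type markers in each of 18 libraries, as log2(TPM + 1) minus the mean of the 15 tumours (red above, blue below). Columns run through the K5-Tert, Tert-123 and Braf tumours and then the pools. CFP is highest in K5-Tert tumour 3 (83.1 TPM) and CFB in Tert-123 tumour 4 (50.7 TPM), the 2 tumours with the highest macrophage sums (3936 and 5349 TPM), while C3 is highest in Tert-123 tumour 5 (357.4 TPM).

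The 3 tumour groups were then compared in 1 limma fit over the 15 tumours and 7498 genes, which asks whether either Tert change alters the Braf tumours; the comparisons share tumours with one another. K5-Tert tumours had lower CD55 and CD59A than Braf tumours on the deposited scale, and neither call held under the TMM-type scaling described below. When rescaled without RPPH1, the CD55 call held (-1.61, limma adjusted p = 0.0298). The CD59A call did not (-1.16, limma adjusted p = 0.05503). The mean CD55 level was 8.87 ± 2.59 TPM in K5-Tert tumours and 32.6 ± 14.1 TPM in Braf tumours (SD, n = 4 each), and the groups did not overlap. The share of all genes without overlap between these groups was not counted. The log2 difference in CD55, K5-Tert minus Braf, was -1.71 ± 0.50 (SE; limma, adjusted p = 0.02293). For CD59A the means were 6.14 ± 4.41 TPM in K5-Tert tumours and 13.0 ± 1.33 TPM in Braf tumours (SD, n = 4 each), with K5-Tert tumour 3 inside the Braf range, and the log2 difference was -1.19 ± 0.41 (SE; limma, adjusted p = 0.04399). These were 2 of the 5 members tested and none was higher, where 21.9% of all genes were called lower and 0.587% higher. The 1641 genes called lower over all genes became 225 with the XIST covariate, 467 with only the 2 groups compared, 381 without Braf tumour 3 and 3492 without K5-Tert tumour 1, the last 2 being the lowest and highest counts when each library was left out.

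The median of all genes lay 0.48 lower in K5-Tert tumours on the log2 scale, and relative to it CD55 differed by -1.23 and CD59A by -0.71. With TMM-type scaling, which brings the bulk of genes to the same level, 4.56% of genes were called lower and 8.24% higher, and CD55 (-1.14, adjusted p = 0.1484) and CD59A (-0.68, adjusted p = 0.2495) were not called by limma; relative to the median gene on that scale they differed by -1.23 and -0.78. On that scale CD55 was 8.32, 17.9, 13.4 and 9.68 TPM in the K5-Tert tumours, against 24.2, 15.4, 34.1 and 42.6 TPM in the Braf tumours, and K5-Tert tumour 2 was no longer below all Braf tumours. The scaling factors were 0.569 and 0.554 in K5-Tert tumours 2 and 4, and 0.841 to 1.31 in every other library. Tert-123 tumour 1, in which RPPH1 took 67.4%, had a factor of 0.901. XIST, made from the inactive X of female cells, reached 10 TPM in 1 of 4 K5-Tert tumours and in 4 of 4 Braf tumours; with log2(XIST + 1) as a covariate the differences were -2.03 for CD55 (adjusted p = 0.06632) and -0.84 for CD59A (adjusted p = 0.2614). C3 (-0.44 ± 0.45 SE, adjusted p = 0.4659), CFB (-0.38 ± 0.70 SE, adjusted p = 0.6969) and CFP (-0.06 ± 0.62 SE, adjusted p = 0.9497) were not called by limma, and under TMM-type scaling the 3 differences were on the positive side (0.17, 0.12 and 0.52). When each library was left out in turn, the CD55 call was lost without Braf tumour 3 or 4 or K5-Tert tumour 2 or 4 (adjusted p up to 0.08453), and the CD59A call without any 1 of the 4 Braf tumours, K5-Tert tumour 2 or 4, or Tert-123 tumour 1, 2 or 5 (adjusted p up to 0.1851). Over 23 alternatives the adjusted p ran from 0.01418 to 0.1484 for CD55 and from 0.007999 to 0.2614 for CD59A.

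Between K5-Tert and Tert-123 tumours limma called 0 of 5 members, while 29.5% of all genes were called lower in K5-Tert tumours and 0.76% higher. The 2210 genes called lower became 528 without K5-Tert tumour 4 and 3910 without K5-Tert tumour 1, the lowest and highest counts when each library was left out. At an unadjusted p under 0.05 there were 3 members, where 3424 of all 7498 genes tested were under it too. C3 averaged 104.3 ± 51.3 TPM in K5-Tert tumours (SD, n = 4) and 208 ± 120 TPM in Tert-123 tumours (SD, n = 7), a log2 difference of -0.88 ± 0.40 (SE; limma, adjusted p = 0.09443). CD55 differed by -1.15 ± 0.44 (SE; adjusted p = 0.05196) and CD59A by -0.91 ± 0.36 (SE; adjusted p = 0.06202). With TMM-type scaling the 3 values were -0.24, -0.57 and -0.38, again with none called, where 4.11% of genes were called lower and 10.6% higher. In the fit without the 3 tumours of the highest macrophage sum, limma called 1755 of 7498 genes lower and 40 higher. There CD55 (-1.33, adjusted p = 0.04625) and CD59A (-1.61, adjusted p = 0.005754) passed the threshold. Leaving out 1 library brought C3 past it without Tert-123 tumour 3 or K5-Tert tumour 3, CD55 without Tert-123 tumour 3 or 6, and CD59A without Tert-123 tumour 4 or 6 or K5-Tert tumour 1 or 3. Over 23 alternatives the adjusted p ran from 0.04094 to 0.703 for C3, from 0.02188 to 0.4064 for CD55 and from 0.005754 to 0.4656 for CD59A.

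Tert-123 tumours were not told apart from Braf tumours by any member. limma called 0 of 5 members and 0% of all genes in either direction; at an unadjusted p under 0.05 there were 50 genes of 7498 and 0 members, and with no filter 1 gene (0.00441% of 22688, called lower), no member, was called. The log2 differences, Tert-123 minus Braf, were 0.44 ± 0.40 for C3, 0.18 ± 0.62 for CFB, 0.18 ± 0.55 for CFP, -0.55 ± 0.44 for CD55 and -0.28 ± 0.36 for CD59A (SE), each with an adjusted p of 0.9997. For CD55, 4 of 7 Tert-123 tumours (6.09 to 17.2 TPM) were below every Braf tumour and tumour 7 (53.7 TPM) was above every one. XIST was at most 0.0636 TPM in Tert-123 tumours 5, 6 and 7 and at least 54.5 TPM in the rest of that group. The K5-Tert, Tert-123 and wild-type pools had 1.29, 10.9 and 43.2 TPM, so the comparisons with these groups were also uneven in XIST. CD55 was 39.95, 9.87 and 53.7 TPM in Tert-123 tumours 5, 6 and 7. With the XIST covariate limma again called 0 members between Tert-123 and Braf tumours.

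The rest of the pathway was followed through 53 other complement genes found of 55 listed, 14 of which passed the filter over 18 libraries. limma called 7 higher and 2 lower in tumours than in pools, where 15.4% of all 7825 genes were called higher and 10% lower, and counts of 7 and 2 were also called without the 3 tumours of the highest macrophage sum. Since a gene can pass the filter through the tumours alone, as ITGAX did, these counts describe the tested genes. With no filter 10 of the 53 were called higher and 3 lower, where 7.88% of all genes were called higher and 6.27% lower, and the median log2 difference of the 53 was 0.31 beside 0.15 over all genes. CLU, clusterin, a secreted chaperone that also blocks the terminal pore, rose. It was at 3420, 476, 2372 and 2448 TPM in the K5-Tert tumours, 1702, 2417, 1660 and 1477 TPM in the Braf tumours and 1239 to 3263 TPM in the Tert-123 tumours, against 106, 52.9 and 59.2 TPM in the K5-Tert, Tert-123 and wild-type pools. Every tumour was thus several times above every pool, and the log2 difference was 4.71 ± 0.40 (SE; limma, adjusted p = 8.336e-09).

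The subunits of C1q, which starts the classical pathway and is made mainly by macrophages, rose by 2.57 (C1QB), 1.72 (C1QA) and 1.64 (C1QC) on the log2 scale (limma, adjusted p = 0.003635, 0.02978 and 0.01399); with no filter C1QA was not called (adjusted p = 0.06631). The Tert-123 pool, at 71.8 TPM for C1QA and 48.0 TPM for C1QB, lay inside the range of the tumours for both (21.1 to 213.7 TPM and 20.6 to 213.8 TPM). It also lay inside that range for C1QC (28.3 TPM, against 18.5 to 172.5 TPM). Of 15 tumours, 6, 8 and 13 exceeded all pools for C1QA, C1QB and C1QC. ITGAX and ITGB2, the chains of complement receptor 4 on leukocytes, rose by 3.09 (adjusted p = 0.002217) and 2.94 (adjusted p = 0.004239), and C1QBP, a largely mitochondrial protein that can bind C1q, by 1.05 (adjusted p = 0.003989). All pools were exceeded in 14, 11 and 15 of 15 tumours for ITGAX, ITGB2 and C1QBP. CD93 and THBD, surface proteins of endothelial cells, fell by 2.02 (adjusted p = 0.006617) and by 2.41 (adjusted p = 0.002152). Endothelial markers (6 genes) summed to 12.1 to 105.5 TPM in the tumours and 85.5, 826 and 300.1 TPM in the K5-Tert, Tert-123 and wild-type pools. All 4 tested were called lower, where 10% of all genes tested were. KDR, CD93 and THBD each reached 10 TPM in 2 tumours and passed the filter only with the pools. These calls therefore describe the tested genes alone. Of the markers under the filter, TEK lay below all pools in 15 of 15 tumours. VWF lay below all pools in 0 tumours and above them in 2. The part of endothelial RNA in CD93 and THBD was not tested.

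The other 5 tested genes were not called by limma, among them C1S1 (1.65), COLEC12 (1.33), the C1 inhibitor SERPING1 (1.67), and CR1L, the rodent membrane regulator Crry (-0.03 ± 0.23 SE). CR1L was at 14.0 to 33.6 TPM in the tumours and 17.2, 33.9 and 24.7 TPM in the K5-Tert, Tert-123 and wild-type pools, overlapping throughout. None of 8 further components, C4A and those of the terminal pore (HC, the mouse C5 gene, C6, C7, C8A, C8B, C8G and C9), passed the filter. No tumour exceeded 1.70 TPM for any of them, and C7 had 6.72 TPM in the Tert-123 pool. In the 3 comparisons among tumours, limma called 0 of the 12 other complement genes tested, and with no filter 1 of the 53, CD55B, lower in K5-Tert than in Braf tumours at levels of at most 0.142 TPM against 0.212 to 1.28 TPM. With no filter, 6.1% of all genes were called lower and 0.141% higher in that comparison, and 9.2% lower and 0.212% higher in K5-Tert against Tert-123 tumours.

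**Figure D4:**
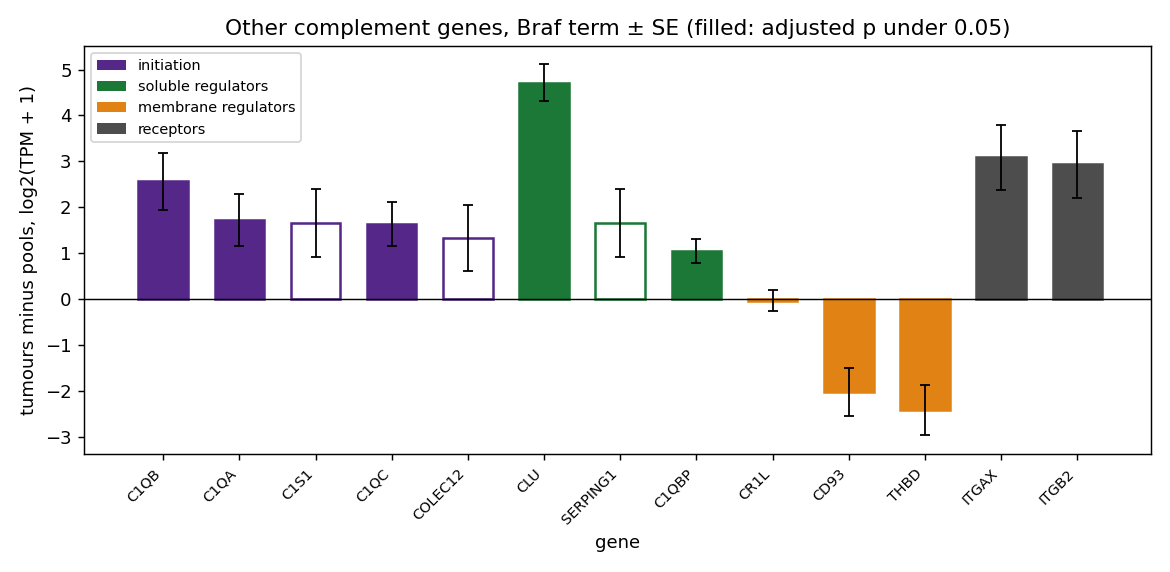
Difference between tumours and pools (limma Braf term ± SE, log2(TPM + 1)) for the other complement genes past the filter that are named in the text, coloured by role. Filled bars passed an adjusted p of 0.05, open bars did not. CLU stands highest at 4.71, and THBD lowest at -2.41.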

How the data were processed

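The deposited table holds 1 value per gene symbol and library; its unit was taken as TPM because every column sums to 1000000, and the authors' aligner, quantifier, annotation and genome build are not stated. Per the series' design text, cells were sorted into TRIzol and low-input messenger RNA libraries were read as pairs. Of 23652 deposited entries, 26 with date-like names (at most 0.0455% of a library's TPM) were left out. Groups came from the genotype labels; replicate numbers follow accession order and pair nothing, and no 2 columns were identical.

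Genes at 10 TPM or more in at least 4 of the libraries of a fit were tested on log2(TPM + 1) values by limma-trend (limma 3.58.1, R 4.3.3): 7498 genes over 15 tumours and 7825 over 18 libraries. Tests were two-sided, with Benjamini-Hochberg adjustment over all genes tested and a threshold of 0.05. The steps were tested on simulated data. The alternatives were pseudocounts of 0.5 and 5, no filter, TMM-type scaling (30% of ratios and 5% of levels trimmed), rescaling without RPPH1, XIST as a covariate, only the groups compared, the Braf term alone, and leaving out each library; leaving out 3 macrophage-rich tumours was chosen after seeing the data.

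The members, lists and rules were chosen with earlier results of these data known. All 9 members are named; of the other complement genes, those past the threshold are named, up to 6 a comparison and direction by smallest p, with C1QA, the next by p, named beside the other C1q chains, and CR1L and others not called were named after their values were seen; 1 tested gene of that list is not reported here by name. Likeness is Pearson r of TMM-type scaled log2 levels over 15 tumours, 3 genes a member. Promoters and neighbours come from RefSeq GRCm38.p6, which need not be the authors' build.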

Additional observations from a re-analysis of the deposited data

Results flagged for a closer look

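Dixon's test was applied to 26 combinations of a member and a tumour group. In 4, a library's distance to its nearest neighbour took up more of the group's range than the critical value allows. Chance gives about 1 in 20 for normally distributed values. The test used TPM, which is skewed, and was not run on log2 values, so 4 of 26 cannot be read as an excess. C4B was 59.2 TPM in Tert-123 tumour 4, and the next highest Tert-123 tumour had 7.56 TPM. C2 was 7.92 TPM in the same tumour, against 2.80 TPM in the next. That tumour also had the highest macrophage and fibroblast marker sums of all libraries (5349 and 2477 TPM). CFP was 83.1 TPM in K5-Tert tumour 3, against 18.02 TPM in the next K5-Tert tumour, and that library had the second highest macrophage sum (3936 TPM). CFD was 2.72 TPM in Braf tumour 1, against 0.361 TPM in the next Braf tumour. The part of other cells in these values was not tested.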

How the results depend on the processing

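In tumours against pools, C3, CD55 and CD59A kept direction and call in all 27 alternatives (log2 differences of 1.85 to 2.33, 1.89 to 3.5 and -2.91 to -2.22), CFB in 24 (1.07 to 2.99) and CFP in 26 (1.77 to 3.55). The 2 members called lower in K5-Tert than in Braf tumours became 0 with no filter, with TMM-type scaling and with the XIST covariate, 1 when rescaled without RPPH1 and with only the groups compared, and 0 to 2 when each library was left out; CD55 kept its call in 11 of these 15 fits (lost without Braf tumour 3 or 4, or K5-Tert tumour 2 or 4) and CD59A in 6 (lost also without Braf tumour 1 or 2, or Tert-123 tumour 1, 2 or 5). The 0 members called lower in K5-Tert than in Tert-123 tumours became 0 to 2 when each library was left out. They became 2 without the 3 macrophage-rich tumours, where 1755 of 7498 genes were called lower. The cause of these changes was not tested. No called direction turned round. Over all genes, TMM-type scaling moved calls in K5-Tert against Braf tumours to 618 higher and 342 lower, where the deposited scale gave 44 and 1641, and in K5-Tert against Tert-123 tumours to 793 and 308, where it gave 57 and 2210; lower calls also became 1183 with only those groups compared and 1321 when rescaled without RPPH1. Limits: the pools are 3 single libraries, depth is unknown, values listed at 0 have no detection limit, and no paired analysis was possible because replicate numbers come from accession order.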
